A study of Mus musculus with 16 samples.

Results

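The genes described here are 10 crystallins, Cryaa, Cryab, Cryba1, Cryba2, Cryba4, Crybb1, Crybb2, Crybb3, Crygs and Crygn, out of 19938 genes measured. They were chosen by their gene symbols and with results of these arrays already known, among them that the array of 1 RPE sample, RPE control 2, reads high in genes of the lens. Each of the 10 symbols belonged to 1 transcript cluster of the array, the unit for which the authors deposited a value, so that none of them was picked from several clusters. RNA came from the isolated retinal pigment epithelium (RPE), the pigment cell layer behind the photoreceptors, and from the neurosensory retina (NSR), the neural layers with their glia, of 8 male Balb/cJ mice, an albino strain, aged 10 weeks. Of these mice, 4 were kept under fluorescent light of 10000 lux during 18 hours, with tissue taken 4 hours later, and the other 4, the control mice, lived on a 12-hour cycle of light and dark. With 1 array for each tissue of each mouse the groups are light-exposed RPE, control RPE, light-exposed NSR and control NSR, with 4 arrays each, and numbers such as RPE control 2 name a mouse within its treatment. The bright light and the missing dark phase were given together and cannot be told apart.

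Crystallins are the main soluble proteins of the eye lens. The alpha crystallins, Cryaa and Cryab, are small heat shock proteins that hold unfolding proteins in solution, and Cryab is also made in many other tissues and is a known target of the heat shock factors. The beta crystallins (the Cryba and Crybb genes) and the gamma crystallins (the Cryg genes) are structural proteins of lens fibre cells, whose mRNAs have also been found in the retina.

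In light-exposed NSR 3 of the 10 rose, Cryab, Crygs and Cryba1, and 0 fell, where 8.87% of all genes rose and 6.24% fell. In the light-exposed RPE 0 of the 10 rose and 0 fell, where 9.08% of all genes rose and 8.53% fell. Genes are said to rise, fall or differ at a limma p under 0.05 after Benjamini-Hochberg adjustment over all 19938 genes. Values are log2 expression values, so that 1 unit is a 2-fold step, and they compare arrays for 1 gene and not 1 gene with another. The median change of the 10 was 0.06 in the NSR and -0.31 in the RPE, against -0.02 and -0.01 over all genes. The RPE median includes RPE control 2, a control array that lay above all other RPE arrays for 8 of the 10. It therefore does not show a fall shared by the crystallins, and the RPE changes without that array are given below.

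**Figure D1:**
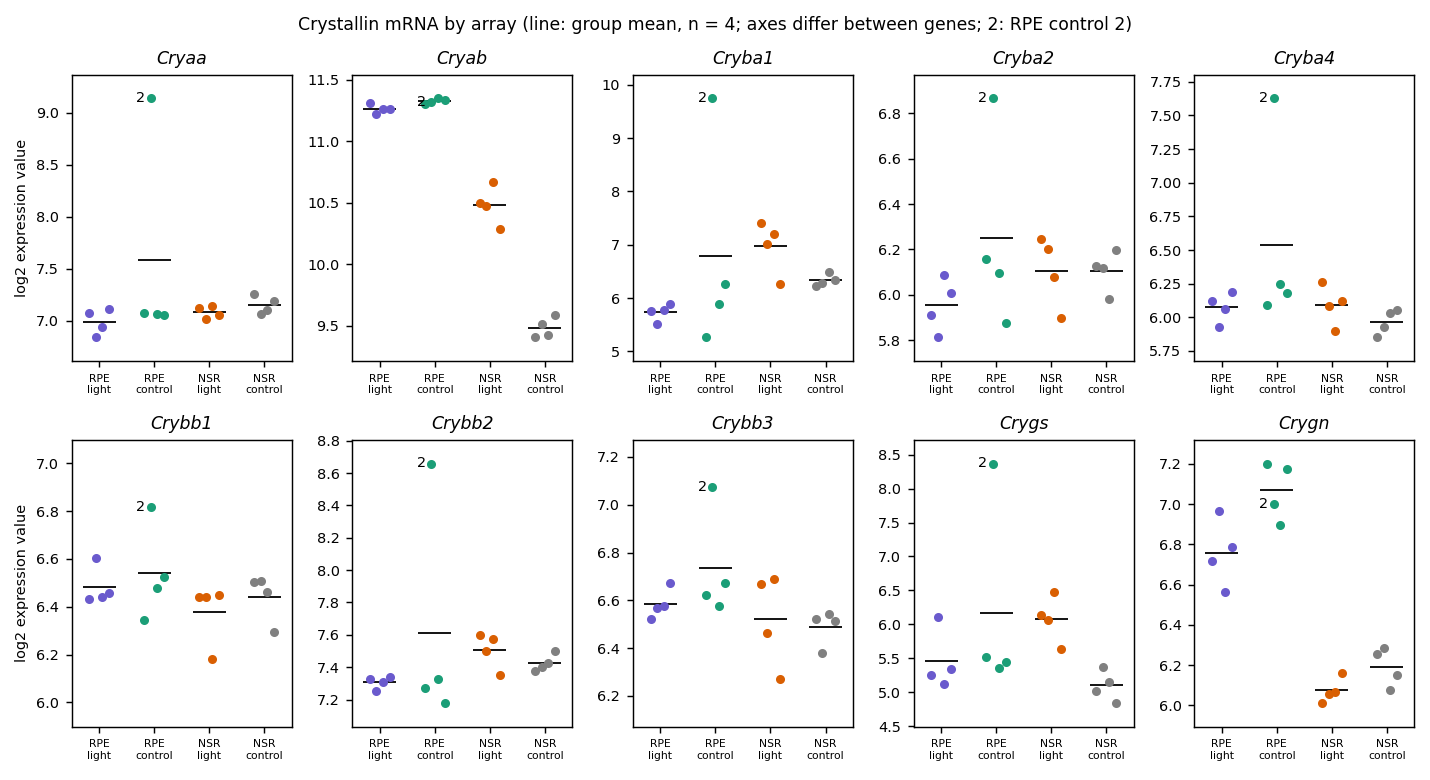
Log2 expression values of the 10 crystallins on the 16 arrays; each point is 1 array, each line the mean of 4 arrays, and the digit 2 marks RPE control 2. Cryab and Crygs are higher on every light-exposed NSR array than on every control NSR array, and RPE control 2 lies above the other RPE arrays for 8 of the 10 genes, all but Cryab and Crygn.

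RPE control 2 stood apart from the other RPE arrays in lens crystallins. It was at least 1 log2 unit above each of the other RPE arrays for 5 of the 10 crystallins, Cryba1, Crygs, Cryaa, Cryba4 and Crybb2, a difference that 0.0552% of all genes, 11 genes, showed. Cryba1, a beta crystallin, read 9.75 there, against a mean of 5.80 on the other 3 control RPE arrays, and Crygs, the gamma crystallin of the outer lens fibres, read 8.37 against 5.44. Cryaa, the alpha crystallin made mostly in the lens, read 9.14 against 7.06. For Cryab the array did not stand apart, at 11.32 against 11.33, and neither did it for Crygn, at 7.00 against 7.09. The differences of the others were 1.45 for Cryba4, 1.40 for Crybb2, 0.82 for Cryba2, 0.45 for Crybb3 and 0.37 for Crybb1. These differences are what led to the choice of these genes and are given as a description.

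Lens genes outside the 10 were high on the same array. The 3 genes with the largest excess there were further gamma crystallins, Crygd with 5.10, Crygb with 4.05 and Crygc with 4.01, followed by Cryba1 and Crygs. Lgsn, which encodes lengsin, a lens protein related to glutamine synthetase, came next with 2.80, and Kera, which encodes keratocan of the corneal stroma, with 2.40. Kera varied on the other RPE arrays too, from 5.12 on RPE light 2 to 7.81 on RPE light 1 and 7.91 on RPE control 3, against 8.96 on RPE control 2. Among 12 lens genes other than crystallins, Lgsn was the one at least 1 unit above each other RPE array, and 8 were above all of them by any amount. The share of all genes above them by any amount was not counted, so that the 8 are not set against a background. The median of these 12 genes was 6.84 on RPE control 2, against 6.51 to 6.71 on the other control RPE arrays, and 6.34 to 6.51 on light-exposed RPE arrays. Crygd, Lgsn and Kera are named here because of these values.

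Over the 8 RPE arrays, the mean deviation of the 10 crystallins from their group means was matched most closely by Crygb, Lgsn, Crygc, Crygd and Crygf, with Pearson r of 0.973 to 0.994 among 18603 other genes. The same r was 0.881 to 0.991 for 8 of the 10 crystallins, but -0.12 for Cryab and -0.17 for Crygn. Each crystallin is itself part of that mean, so its r is in part fixed in advance. These correlations share 1 array that lies far from the others and describe mostly that array. Over the 8 NSR arrays the closest genes were others, Heatr6, Ldlrad2, Apobec3, Syngr3 and Olfr640, with r of 0.974 to 0.980. The 10 crystallins, each again part of the mean, ranged there between -0.49 for Crygn and 0.97 for Cryba1. Predicted and clone names were left out of the 18603 genes. The genes named are the highest of that many correlations over few arrays. No test was run, and a pattern shared with the crystallins is not shown for the NSR.

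Markers of other tissues varied between arrays as well. RPE light 2 was high in genes of the corneal epithelium: Krt12, its keratin, read 10.95 there, against 6.65 to 6.86 on the other light-exposed RPE arrays and 6.71 to 7.05 on control RPE arrays. The median of 10 cornea genes was 8.79 on RPE light 2, against 6.06 to 6.63 on the other RPE arrays. Of 10 RPE marker genes 9 were higher in RPE than in NSR in light-exposed and in control mice, in control mice also without RPE control 2, and Best1 was not. All 8 rod genes were lower in RPE than in NSR, with medians of 7.32 to 8.60 in light-exposed RPE, 7.82 to 8.38 in control RPE, 11.52 to 11.82 in light-exposed NSR and 12.14 to 12.22 in control NSR. Because of RPE control 2, the light responses of the RPE and the comparisons with control RPE are given with and without it.

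**Figure D2:**
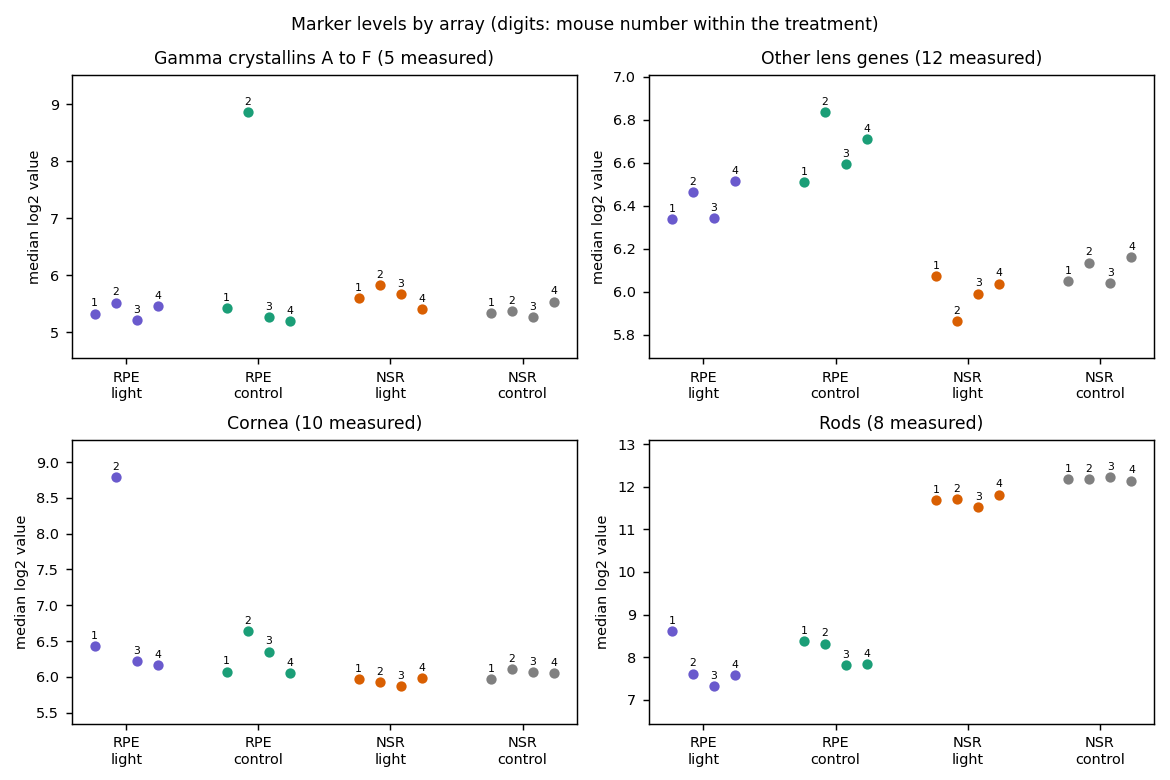
Median log2 value on each array of the 5 measured gamma crystallins A to F, 12 other lens genes, 10 cornea genes and 8 rod genes; each point is 1 array and the digit its mouse number. RPE control 2 is high in gamma crystallins at 8.86, RPE light 2 in cornea genes at 8.79, and light-exposed NSR lies below control NSR in rod genes.

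Cryab, the stress-inducible alpha crystallin, rose in the NSR and did not pass the test in the RPE, where its level was already higher. In the RPE it read 11.31, 11.22, 11.26 and 11.26 in light-exposed mice, against 11.30, 11.32, 11.35 and 11.33 in control mice. In the NSR it read 10.49, 10.47, 10.66 and 10.28 in light-exposed mice, against 9.40, 9.52, 9.42 and 9.59 in control mice. All 4 light-exposed NSR arrays lay above all 4 control arrays, a pattern that 10.7% of all genes showed and that among the 10 crystallins Cryab and Crygs showed. The rise in the NSR was 1.00 (SE 0.08, 1.99-fold, limma adjusted p = 7.46e-06), and it passed the test under all alternatives run.

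In the RPE the change of Cryab was -0.06 (95% interval -0.18 to 0.06, limma adjusted p = 0.535), so that a 2-fold rise like that of the NSR lies outside the interval, and without RPE control 2 it was also -0.06 (95% interval -0.20 to 0.08). The response of the RPE was lower than that of the NSR by 1.06 (SE 0.10, limma adjusted p = 1.54e-06), and without RPE control 2 also by 1.06 (limma adjusted p = 6.40e-06). Cryab was the 1 crystallin whose responses differed between the tissues, where 5.16% of all genes had the higher response in the RPE and 8.05% the lower. The levels thus ran in the order control RPE, light-exposed RPE, light-exposed NSR and control NSR, and among these neighbours the RPE groups did not pass the test. The RPE exceeded the NSR 1.72-fold in light-exposed mice (limma adjusted p = 2.39e-08) and 3.59-fold in control mice (limma adjusted p = 1.86e-13), which was 3.59-fold without RPE control 2 as well.

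Cryaa, the other alpha crystallin, did not follow Cryab. In the RPE it read 7.08, 6.84, 6.94 and 7.11 in light-exposed mice, against 7.07, 9.14, 7.06 and 7.06 in control mice. In the NSR it read 7.13, 7.01, 7.14 and 7.05 in light-exposed mice, against 7.25, 7.06, 7.10 and 7.19 in control mice. Apart from RPE control 2 its 15 values lay between 6.84 and 7.25 in both tissues and treatments. The change in the NSR was -0.07 (95% interval -0.22 to 0.07, limma adjusted p = 0.531), which leaves out a rise like that of Cryab. In the RPE it was -0.59 (limma adjusted p = 0.417), and without RPE control 2 it was -0.07 (95% interval -0.25 to 0.11, limma adjusted p = 0.666).

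Crygs rose in the NSR about as much as Cryab did. In the RPE it read 5.25, 6.11, 5.12 and 5.34 in light-exposed mice, against 5.52, 8.37, 5.36 and 5.44 in control mice. In the NSR it read 6.14, 6.07, 6.47 and 5.63 in light-exposed mice, against 5.02, 5.38, 5.15 and 4.85 in control mice, so that the NSR groups did not overlap. The rise was 0.98 (SE 0.16, 1.97-fold, limma adjusted p = 0.00114) and held when any NSR array was left out. The mean of control NSR, 5.10, lies under 5.63, the level below which the dimmest 25% of genes fall, and how far it stands above background is unknown. In a fit of all 16 arrays, whose spread includes RPE control 2, the same change gave a limma adjusted p of 0.201, and in a fit of the 15 other arrays, chosen after seeing the data, 0.00203.

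In the RPE the change of Crygs was -0.72 (limma adjusted p = 0.515), and without RPE control 2 it was 0.02 (95% interval -0.46 to 0.49, limma adjusted p = 0.977). The response of the RPE minus that of the NSR was -1.70 with all arrays, which did not pass the test (limma adjusted p = 0.118). Without RPE control 2 it was -0.96 and passed (SE 0.28, limma adjusted p = 0.0347). The lower response of Crygs in the RPE thus rests on leaving out that array.

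Cryba1 rose in the NSR by less and with overlap. In the RPE it read 5.75, 5.52, 5.78 and 5.89 in light-exposed mice, against 5.26, 9.75, 5.89 and 6.26 in control mice. In the NSR it read 7.42, 7.02, 7.21 and 6.26 in light-exposed mice, against 6.23, 6.28, 6.50 and 6.33 in control mice. The arrays NSR light 1, 2 and 3 lay above all control arrays, and NSR light 4 lay among them. The rise was 0.64 (SE 0.19, 1.56-fold, limma adjusted p = 0.0440) and did not pass when any NSR array other than NSR light 4 was left out, with changes of 0.49 to 0.70 and limma adjusted p-values of 0.0585 to 0.116. In the RPE the change was -1.05 (limma adjusted p = 0.457), and without RPE control 2 it was -0.07 (95% interval -0.53 to 0.40, limma adjusted p = 0.891).

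NSR light 4 was also the lowest light-exposed NSR array for Cryab, Crygs, Cryba2, Crybb2 and Crybb3. It had the highest value of that group for Crygn and Crybb1.

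For Cryba1, Crygs and Cryaa the 250 bases before the transcription start are shown because these genes were high together on RPE control 2, while the first pair rose in light-exposed NSR and Cryaa did not. The sequences are those of RefSeq on GRCm38.p6, 5′ to 3′ on the gene's strand. Capitals mark matches to TGCTGAC, the core of the site bound by Maf factors, to TTCNNGAA or GAANNTTC, the core of a heat shock element, and to TATAAA, searched on both strands. Of these motifs no matches overlapped in the 3 sequences.
Cryba1, chr11:77725294-77725543, minus strand: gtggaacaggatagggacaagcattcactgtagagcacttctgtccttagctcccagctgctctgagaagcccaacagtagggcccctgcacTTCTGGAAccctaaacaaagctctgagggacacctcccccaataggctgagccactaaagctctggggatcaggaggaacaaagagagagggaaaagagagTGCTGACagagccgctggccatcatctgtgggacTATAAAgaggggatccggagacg
Crygs, chr16:22811411-22811660, minus strand: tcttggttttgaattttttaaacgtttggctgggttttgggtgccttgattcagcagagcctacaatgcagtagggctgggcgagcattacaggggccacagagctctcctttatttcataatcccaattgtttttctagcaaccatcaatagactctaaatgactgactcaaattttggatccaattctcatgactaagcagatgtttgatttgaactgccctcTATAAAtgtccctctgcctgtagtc
Cryaa, chr17:31677681-31677930, plus strand: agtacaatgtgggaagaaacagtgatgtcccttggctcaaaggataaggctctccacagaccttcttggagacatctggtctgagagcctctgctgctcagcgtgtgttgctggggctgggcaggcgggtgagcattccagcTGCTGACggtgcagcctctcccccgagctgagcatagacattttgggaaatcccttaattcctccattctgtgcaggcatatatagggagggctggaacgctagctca

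RefSeq promoters were matched for 9 of the 10 crystallins, and Cryab was not among them. TGCTGAC stood in 4 of the 9, Cryaa, Cryba1, Cryba4 and Crybb1, against 3.81% of 32851 promoter windows of the same length. TATAAA stood in 3 of the 9, Cryba1, Crybb1 and Crygs, against 12.4% of windows. TTCNNGAA stood in the Cryba1 window, as TTCTGGAA beginning 158 bases before the start, against 7.17% of windows, and GAANNTTC in 0 of the 9, against 6.69%. A match describes these letters in this window and is not a measured binding site.

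The remaining beta crystallins showed no light response that passed the test in either tissue. Cryba2, Cryba4, Crybb1, Crybb2 and Crybb3 changed by -0.06 to 0.13 in the NSR, with limma adjusted p-values of 0.369 to 0.997. Crybb2, the main beta crystallin of the adult lens, read 7.60, 7.50, 7.57 and 7.35 in light-exposed NSR, against 7.38, 7.40, 7.43 and 7.50 in control NSR, and the groups overlapped. In the RPE the same 5 genes changed by -0.46 to -0.06, and without RPE control 2 by -0.10 to 0.05. Cryba4 and Crybb1 lie in overlapping stretches of chromosome 5, at 112246492 to 112263625 and 112254563 to 112269585 of GRCm38.p6, and Crybb2 and Crybb3 lie next to each other on the same chromosome. On RPE control 2 the excess over the other control RPE arrays was 1.45 for Cryba4 and 0.37 for Crybb1.

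Crygn, a crystallin whose structure lies between the beta and gamma families, was higher in the RPE than in the NSR, as Cryab was. It read 6.72, 6.97, 6.56 and 6.78 in light-exposed RPE, against 7.20, 7.00, 6.90 and 7.18 in control RPE, with overlap through RPE light 2 and RPE control 3. In the NSR it lay between 6.01 and 6.16 in light-exposed mice and between 6.08 and 6.29 in control mice. The RPE exceeded the NSR 1.61-fold in light-exposed mice (limma adjusted p = 1.98e-06) and 1.84-fold in control mice (limma adjusted p = 7.73e-08), or 1.86-fold without RPE control 2. The change with light was -0.31 in the RPE (SE 0.10, limma adjusted p = 0.0608) and -0.12 in the NSR (limma adjusted p = 0.293). The RPE value passed the test without RPE light 2 (-0.38, limma adjusted p = 0.0282) and without RPE control 3 (-0.37, limma adjusted p = 0.0432), and not without RPE control 2 (-0.33, limma adjusted p = 0.0867).

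**Figure D3:**
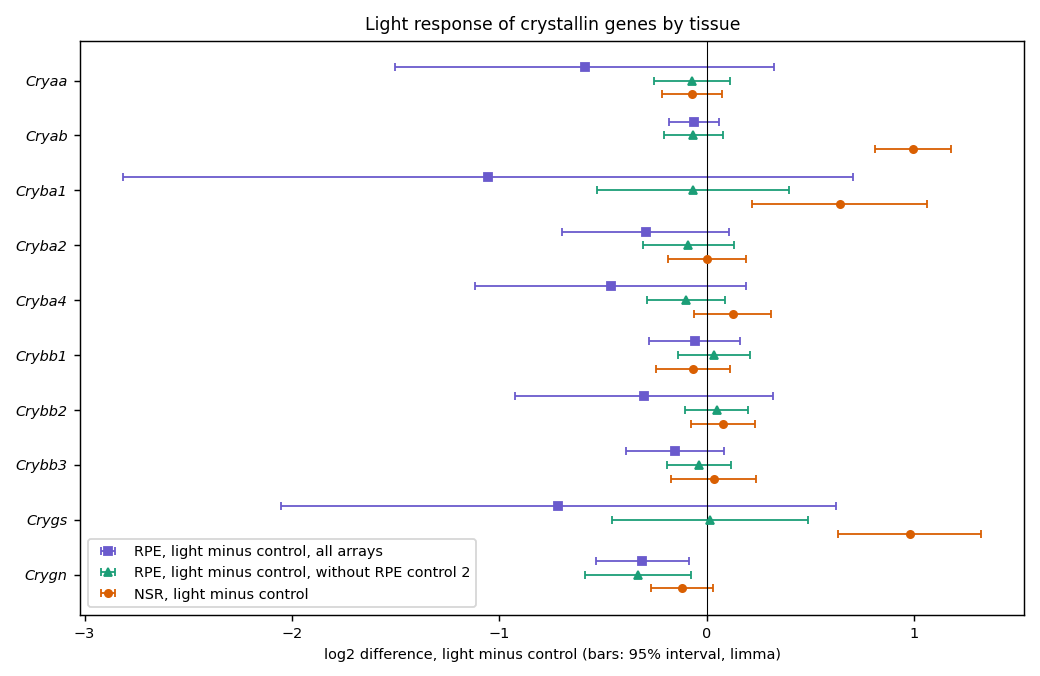
Log2 difference between light-exposed and control mice for each crystallin in the RPE with all arrays, in the RPE without RPE control 2, and in the NSR; points are limma estimates and bars their 95% intervals. Cryab and Crygs lie near 1 in the NSR and near 0 in the RPE without RPE control 2, and the RPE intervals of Cryaa, Cryba1 and Crygs narrow when that array is left out.

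Without RPE control 2, 0 of the 10 crystallins rose and 0 fell in the RPE, where 7.5% of all genes rose and 7.52% fell. For the difference of responses 2 of the 10, Cryab and Crygs, were then lower in the RPE and 0 higher, where 7.71% of all genes were lower and 4.73% higher.

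Between the tissues, Cryab and Crygn were the crystallins that were higher in the RPE in both treatments. In light-exposed mice 2 of the 10 were higher in the RPE and 0 lower, where 34.4% of all genes were higher and 23.6% lower. In control mice 3 were higher and 0 lower, where 30.8% of all genes were higher and 24.2% lower. The third was Cryba4, with 6.09, 7.63, 6.25 and 6.18 in control RPE, against 5.85, 5.93, 6.03 and 6.05 in control NSR, a difference of 0.57 (limma adjusted p = 0.0448). Without RPE control 2 that difference was 0.21 and did not pass (limma adjusted p = 0.0591), and 2 of the 10 were higher, where 29.5% of all genes were higher and 23.3% lower. With the mouse as a block Crygs also passed in control mice (1.07, limma adjusted p = 0.0324), a value that holds RPE control 2. Without RPE control 2 and without the block its difference was 0.34 (limma adjusted p = 0.193).

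Between the light-exposed tissues Cryba1, Crygs and Crybb2 did not pass in the fit of all 16 arrays. They passed in the fit of the 15 arrays other than RPE control 2, which was chosen after seeing the data. The share of all genes that passed in that fit is not given here. In the fit of all 16 arrays Cryba1 differed by -1.24 between light-exposed RPE and light-exposed NSR, which did not pass (limma adjusted p = 0.0999), although the 2 groups of arrays did not overlap. In the fit of the 15 other arrays the same difference gave a limma adjusted p of 8.43e-05. For Crygs the difference was -0.62, with a limma adjusted p of 0.277 in the fit of all arrays and 0.0108 in that of 15, and RPE light 2 lay among the NSR arrays. For Crybb2 the difference was -0.20, without overlap, with a limma adjusted p of 0.457 in the fit of all arrays and 0.0134 in that of 15.

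The gamma crystallins A to F are proteins of the lens fibre core. Of the 5 measured genes of the gamma A to F group, Crygb rose in light-exposed NSR and 0 fell. Crygb read 5.60, 6.41, 5.68 and 5.02 there, against 4.67, 4.71, 4.69 and 4.89 in control NSR, without overlap. The rise was 0.94 (SE 0.22, 1.91-fold, limma adjusted p = 0.0116), and all control NSR values lie below the level of 5.63 given above. Crygd read 4.32, 5.48, 5.02 and 3.56 in light-exposed NSR, against 3.85, 3.70, 3.62 and 3.56 in control NSR, a difference of 0.91 with overlap that did not pass (limma adjusted p = 0.0718). NSR light 4 was again the lowest light-exposed array for Crygb and Crygd. In the RPE 0 of the 5 passed in either direction, with or without RPE control 2.

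Lens genes other than crystallins did not rise in light-exposed NSR. Of 12 measured, 0 rose and 0 fell, and 3 had an unadjusted p under 0.05, all with lower values in light-exposed mice. The largest difference was that of Bfsp1, a beaded filament protein of lens fibres, at -0.26 (limma adjusted p = 0.0881). Lgsn differed by 0.02 in the NSR (95% interval -0.22 to 0.25). The medians of the 12 genes were 5.86 to 6.07 in light-exposed NSR and 6.04 to 6.16 in control NSR.

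The genes in excess on RPE control 2 and those that rose in light-exposed NSR overlapped in part. Cryaa and Lgsn were 2.07 and 2.80 higher on RPE control 2 than on the other control RPE arrays and differed by -0.07 and 0.02 between light-exposed and control NSR. Cryab differed by -0.01 on RPE control 2 and by 1.00 in light-exposed NSR. Crygs, Crygb and Cryba1 were high in both, with 2.93, 4.05 and 3.94 on RPE control 2 and 0.98, 0.94 and 0.64 in light-exposed NSR. Crygd and Crygc had 5.10 and 4.01 on RPE control 2, and 0.91 and 0.31 in light-exposed NSR, which did not pass the test. A log2 difference depends on the level it starts from. On the linear scale the excess on RPE control 2 was 800 for Cryba1, 429 for Cryaa and 509 for Lgsn. In light-exposed NSR the linear differences of the same genes were 50, -7 and 2. These are set side by side as values, since those on RPE control 2 come from 1 array and led to the choice of the genes, and the part of lens tissue in either set was not tested.

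**Figure D4:**
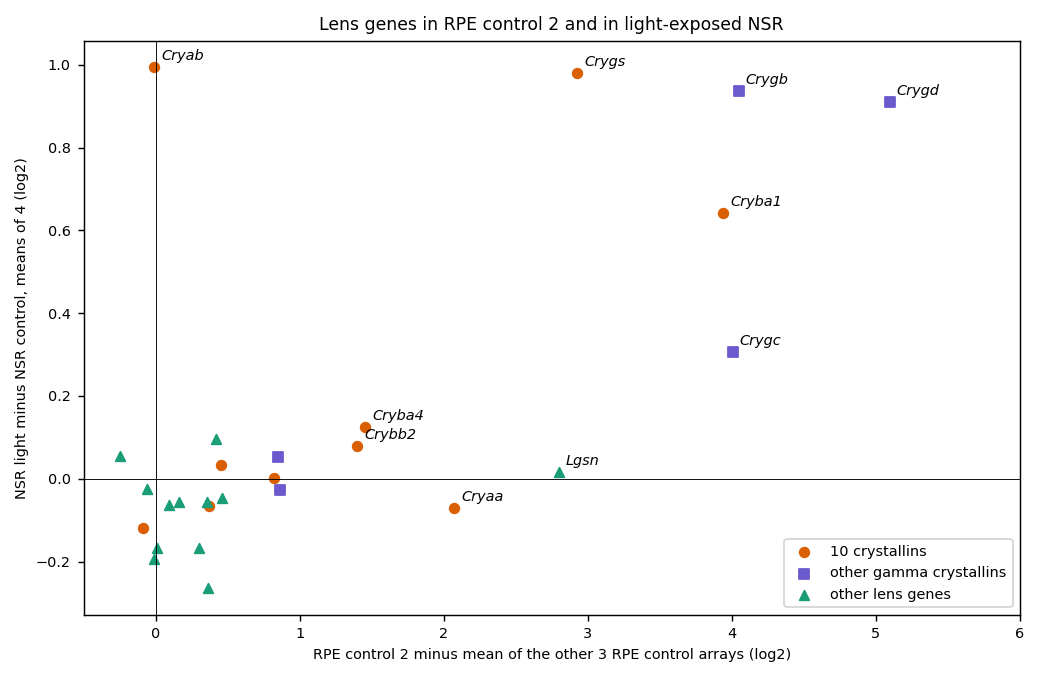
For the 10 crystallins, 5 other gamma crystallins and 12 other lens genes, the horizontal axis gives the log2 excess of RPE control 2 over the mean of the other 3 control RPE arrays and the vertical axis the log2 difference between the means of light-exposed and control NSR; each point is 1 gene. Cryab lies at -0.01 and 1.00, Lgsn at 2.80 and 0.02, and Crygb at 4.05 and 0.94.

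In the RPE 1 of the 12 lens genes fell with light, Lim2, a membrane protein of lens fibres. Its mean was 6.52 in light-exposed RPE and 7.24 in control RPE, a change of -0.72 (SE 0.09, 1.65-fold lower, limma adjusted p = 0.000401), and without RPE control 2 the change was -0.79. Lim2 was not high on RPE control 2, where it lay -0.25 from the mean of the other control RPE arrays.

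Of 6 transcription factors that drive lens genes, 0 passed in the NSR in either direction, where 8.87% of all genes rose and 6.24% fell. The largest value was that of Prox1 at -0.22 (limma adjusted p = 0.0695). Pax6 and Prox1 read 9.82 to 9.90 and 10.20 to 10.38 in control NSR, against 6.34 to 6.98 and 5.27 to 6.61 in control RPE. Their NSR values are thus not a reading of lens tissue. In the RPE Six3 fell by 0.47 (SE 0.09, limma adjusted p = 0.00528), or by 0.56 without RPE control 2, and 0 rose. Maf, whose core site stands in the promoters shown of Cryba1 and Cryaa, had a difference of -0.17 in the RPE (limma adjusted p = 0.257), -0.13 there without RPE control 2, and -0.08 in the NSR (limma adjusted p = 0.622). These values are those of the gene Maf alone and do not speak for other Maf factors that bind such a site.

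The crystallin name is also carried by genes outside the lens families, some of them enzymes that were found as lens proteins in other animals. Crym, a thyroid hormone binding protein named mu-crystallin from marsupial lenses, rose in light-exposed NSR. It read 10.14, 10.32, 9.78 and 10.07 there, against 8.23, 8.16, 8.34 and 8.09 in control NSR, without overlap, a rise of 1.88 (SE 0.10, 3.67-fold, limma adjusted p = 2.28e-07). It was the 1 of 7 genes with a crystallin name outside the lens families that passed in the NSR. In the RPE 2 of the 7 fell and 0 rose: Cryz, a quinone reductase named zeta-crystallin from guinea pig lenses, by 0.49 (SE 0.09, limma adjusted p = 0.00445), and Cryl1, named from rabbit lenses, by 0.42 (SE 0.08, limma adjusted p = 0.00610). Both also passed without RPE control 2, each with a fall of 0.49.

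Heat shock genes were read beside the alpha crystallins, which belong to the same protein family as the 6 further small heat shock proteins. Of these 6, Hspb1 rose in light-exposed NSR and 0 fell. Its mean was 6.95 in light-exposed NSR and 6.68 in control NSR, a rise of 0.28 (SE 0.08, limma adjusted p = 0.0386). In the RPE Hspb2, the gene beside Cryab on the chromosome, fell by 0.30 (SE 0.08, limma adjusted p = 0.0268) and 0 rose. That call rests on RPE control 2, where Hspb2 read highest of its group: without it the difference was -0.24 (limma adjusted p = 0.0602) and 0 of the 6 passed.

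Of 8 other heat shock chaperones and partners, 2 rose in light-exposed NSR and 0 fell. Bag3, a co-chaperone that works with small heat shock proteins, rose by 0.97 (SE 0.08, 1.95-fold, limma adjusted p = 4.51e-06), close in size to Cryab. Dnajb1, a partner of the Hsp70 chaperones, rose by 0.55 (SE 0.09, limma adjusted p = 0.00116). In the RPE 1 of the 8 rose and 2 fell. Bag3 rose there by 0.41 (SE 0.09, limma adjusted p = 0.00999), and Hsp90aa1, the inducible form of the abundant chaperone, fell by 0.33 (SE 0.06, limma adjusted p = 0.00279). Both also passed without RPE control 2, with changes of 0.44 and -0.33. The response of the RPE was lower than that of the NSR for 4 of these 8 genes, among them Bag3 by 0.56 (limma adjusted p = 0.00402) and Dnajb1 by 0.84 (limma adjusted p = 0.00431), and 4 were also lower without RPE control 2, with Bag3 at -0.53 and Dnajb1 at -0.92.

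**Figure D5:**
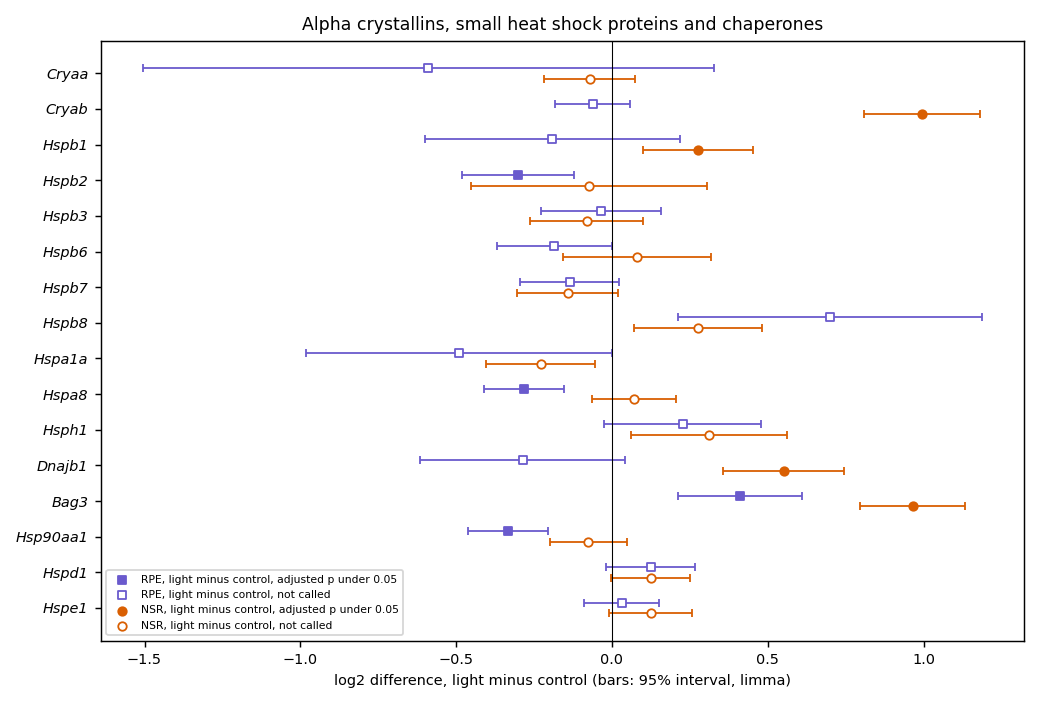
Log2 difference between light-exposed and control mice in the RPE and in the NSR for the alpha crystallins, 6 small heat shock proteins and 8 chaperones and partners; bars are 95% intervals of limma and filled points have an adjusted p under 0.05. Cryab, Bag3, Dnajb1 and Hspb1 lie above 0 with filled points in the NSR, and Cryaa does not.

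Cell marker genes that passed the test with light were counted beside these results. As a background over the whole array, calls of higher made up 8.87% in the NSR and 9.08% in the RPE. Calls of lower made up 6.24% and 8.53%. The lists were not tested against these shares, and a count of 0 or 1 in a list this short does not set it apart. In light-exposed NSR 8 of 8 rod genes and 5 of 7 Müller glia genes fell, 0 of either list rose, and 1 of 8 ganglion cell genes rose and 0 fell. Of 10 cornea genes 1 rose and 0 fell there, of 8 genes of the ciliary body and iris 0 passed, and of 10 RPE genes 4 fell. In light-exposed RPE 5 of 10 RPE genes fell, 1 of 7 Müller glia genes rose and 2 fell, 1 of 10 cornea genes and 2 of 8 genes of the ciliary body and iris fell, and 0 of 8 rod genes and 0 of 8 ganglion cell genes passed. These RPE counts were the same without RPE control 2. The 2 genes of the Müller glia list that fell in the RPE were Car14 and Rlbp1, named here because of their levels. Their control means were higher in RPE than in NSR, 12.28 against 9.10 for Car14 and 12.26 against 9.80 for Rlbp1. In the RPE samples these 2 genes are thus no markers of glia. Glul of the same list read 12.60 to 12.72 in control RPE and 12.43 to 12.59 in control NSR. Perp, the cornea gene that fell in the RPE, had control means of 9.34 in RPE and 6.20 in NSR. For Acta2, of the ciliary body and iris list, which also fell, they were 10.03 and 5.96. These 3 are named for their levels, and the tissue their RNA came from was not tested. In such bulk samples fewer cells of a type and less RNA per cell cannot be told apart, and the part of these shifts in the crystallin values was not tested.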

How the data were processed

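RNA of RPE and NSR was hybridised to 16 Affymetrix Mouse Gene 1.0 ST arrays, 1 for each tissue of 8 mice. The authors deposited 1 log2 value for each of 35556 transcript clusters and array, made with RMA and Partek 6.6 per the submitters' processing notes. The log2 scale was read from the values, which run from 2.20 to 13.84. No background or detection measure was used here, the number of arrays limits the precision, and the labels name no batch.

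From these values, each gene took the brightest of its clusters that carry 1 symbol in the platform annotation, which gave 19938 genes. limma 3.58.1 (lmFit, eBayes) in R 4.3.3 compared light-exposed with control arrays within each tissue (8 arrays), and fitted the difference of responses and the tissue comparisons on all 16 arrays with 4 group means. P-values were adjusted over all genes by the Benjamini-Hochberg method, with a threshold of 0.05. The fits were tested on simulated data. Figures were drawn with Python 3.11.15, pandas 2.3.3 and matplotlib 3.10.9.

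The members and the 12 further gene lists were chosen with earlier results of these data known, so that their counts are no independent evidence. Each count of a list in a light comparison is to be read against the shares of all genes. These were 8.87% higher and 6.24% lower in the NSR, and 9.08% higher and 8.53% lower in the RPE. All members are named, and from each list of crystallins, lens genes, their transcription factors and heat shock genes the called genes with the largest change, up to 2, or the largest value where none passed. Cell type lists are given by counts, and genes outside this rule are said to be chosen for their values. The labels give RPE and NSR of 1 mouse the same mouse identifier, so that the tissues are paired by mouse. After removal of group means, the correlation of such a pair was -0.01 to 0.05. The alternatives changed the scaling, the filter on dim genes, the prior, the array weights, the choice of cluster, the arrays in the fit and the block. Promoter windows of 250 bases before the start came from RefSeq (GRCm38.p6).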

Additional observations from a re-analysis of the deposited data

Results flagged for a closer look

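In 24 genes and 4 groups of 4 arrays, 96 sets were searched for an array whose gap to its nearest neighbour takes more of the range of its group than the 95% critical value of Dixon allows. Of these 12 were marked, and 6 of them are lens crystallins on RPE control 2, whose height there led to the choice of the genes, so that these marks are a description and not a test. On that array the share was 0.9927 for Cryaa, 0.8977 for Cryba4, 0.8993 for Crybb2, 0.9463 for Crygs, 0.9589 for Crygb and 0.9321 for Crygc, each time as the highest control RPE array. Of the other sets 6 were marked, and chance alone marks about 1 in 20. RPE control 2 was the highest control RPE array for Hspb2, with 0.848. RPE light 2 was the highest light-exposed RPE array for Crybb1, with 0.8617, and for Hspb1, with 0.9466. For Crybb1 NSR light 3 was the lowest light-exposed NSR array, with 0.9761. RPE control 1 was the lowest of its group for Bag3, with 0.8383, and NSR control 4 for Cryl1, with 0.8843.

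The light response differed between the tissues for 8 of the same 24 genes, by the interaction in the fit of all 16 arrays. Over all genes 5.16% had the higher response in the RPE and 8.05% the lower. Apart from the crystallins chosen by symbol, these genes were picked for a large light change in the NSR or the RPE of these arrays. That choice favours a difference between the tissues, so the count is a description and is not set against these shares. The response of the RPE minus that of the NSR was -1.057 for Cryab, -1.6464 for Crym, -0.4169 for Cryz and -0.7798 for Lim2. It was -0.4457 for Six3, -0.8371 for Dnajb1, -0.5551 for Bag3 and -0.2578 for Hsp90aa1 (limma adjusted p = 0.0206 for the last). Without RPE control 2, 7 of the 8 passed, and Cryz did not (-0.41, limma adjusted p = 0.0550).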

How the results depend on the processing

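The number of crystallins called in the NSR, 3, was 1 in the fit of all 16 arrays, whose spread includes RPE control 2, 2 when every cluster was tested and in the fit of 15 arrays chosen after seeing the data, and 2 to 3 when arrays were left out in turn. In the RPE the number was 0, against 1, Crygn, without the dimmest 25% of genes (limma adjusted p = 0.0480) and in the fit of all 16 arrays (limma adjusted p = 0.0151), and it was 0 to 1 when arrays were left out in turn. For the difference of responses 1 crystallin was called, 1 to 2 when arrays were left out in turn, and 2 when RPE control 2 was left out jointly with RPE light 1 and 2. Between the tissues of light-exposed mice 2 were called, against 5 in the fit of the 8 arrays compared and in the fit of 15 arrays, and 4 without those 3 RPE arrays. With all 16 arrays 34.4% of all genes were higher in the RPE there and 23.6% lower. The shares of all genes under the alternatives are not given here, so these counts do not set the crystallins apart from other genes. In control mice 3 were called, where 30.8% of all genes were higher and 24.2% lower, and 2 to 5 when arrays were left out in turn. Cryba4 was not called there with trend and robust priors (limma adjusted p = 0.0628) or in the fit of 8 arrays (limma adjusted p = 0.106), and Crybb3 was called after centring on array medians (0.27, limma adjusted p = 0.0297). The cause of these shifts was not tested beyond the arrays and genes left out. Of the values of single crystallins under these alternatives, 937 kept their call, 24 gained one, 19 lost one and 0 changed direction while called.

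With the replicate block, where the mouse was the block for the tissue comparisons and the shared number for the light comparisons, 3 crystallins were called in the NSR, 0 in the RPE, 1 for the difference, 2 between light-exposed tissues and 4 between control tissues, where Crygs was added. Apart from that it changed no call. Within a tissue, light-exposed and control mice share only a number: their deviations correlated between -0.02 and 0.07, and 4 of 8 NSR arrays and 1 of 8 RPE arrays correlated best with their own number.

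Crygs, Crygb and Crygd lie below the level of the dimmest 25% of genes in control NSR, and without a background measure it is unknown how far they stand above background. With 4 arrays a group, changes smaller than the intervals given cannot be told from 0.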
